A study of Mus musculus with 8 samples.

Results

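Genes for nuclear-encoded subunits of oxidative phosphorylation were compared between macrophages that had infiltrated the injured mouse retina and microglia, the resident macrophages of that tissue. The genes were taken by name, 85 of 22558 symbols listed. For complex I these were symbols starting with Nduf, then a, b, c, s or v, then a digit. For complex II they were Sdha to Sdhd. For the others they were symbols starting with Uqcr (complex III), Cox4 to Cox8 (complex IV) or Atp5 (complex V). The naming pattern itself uses no measured value. Of the 85, 37 carry names of complex I, 4 of complex II, 8 of complex III, 19 of complex IV and 17 of complex V. The pattern also catches 3 genes that are not subunits, Cox4nb (Emc8, of the endoplasmic reticulum membrane complex), Atp5s (Dmac2l) and Atp5sl (Dmac2), under the current names that RefSeq pairs with these symbols. It misses Ndufab1, Cyc1 and Cycs, and subunits encoded by mitochondrial DNA were not analysed here.

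The macrophage libraries are numbered 5 to 8 and the microglial libraries 1 to 4, as in their titles, which start with GFP and cont. Both groups came from retinas of Msi1-CreERT2/+; R26R-DTA/+ mice, C57BL/6; 129 mixed, about 5 months old, on day 7 after injury. CreERT2 driven from Msi1 is a tamoxifen-inducible Cre recombinase, and R26R-DTA then switches on diphtheria toxin A, which kills the cell, so every library comes from an injured retina and there is no uninjured group. What GFP marks is not in the genotype given, and how the cells were sorted is not given in the sources used here. The labels do not say whether each library is a different animal. A p-value here therefore speaks of the scatter among these 8 libraries alone, and that scatter may be technical.

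Oxidative phosphorylation is how mitochondria make ATP. Complexes I and II take electrons from NADH and succinate, complex III passes them through cytochrome c to complex IV, which reduces oxygen, and complexes I, III and IV pump protons that complex V, the ATP synthase, lets back to make ATP. Most subunits are encoded in the nucleus, and complexes I, III and IV have a few catalytic core subunits with a larger number of small accessory subunits around them, while complex II has none of the accessory kind. In macrophages, respiration is known to be lowered and succinate oxidation by complex II to be used differently during inflammatory activation.

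Values are FPKM, fragments scaled to transcript length and library size, as deposited. A gene was tested when 4 or more libraries had it at 1 FPKM or higher, which held for 79 of the 85. The 6 below that level were Cox4i2, Cox6b2, Cox7b2, Cox8b, Cox8c and Ndufa4l2, among them the lung isoform Cox4i2, the testis isoforms Cox6b2, Cox7b2 and Cox8c, and Cox8b, known from heart and muscle; the heart and muscle isoforms Cox6a2 and Cox7a1 passed. The loci of 10 of the 85 genes overlap another gene, Ndufs5 with BC002163 nearly whole, and the strand of the reads is not given, so reads there cannot be told apart. Each difference is the macrophage mean less the microglial mean of log2(FPKM + 1), given with the standard error of limma, and a gene is called when its Benjamini-Hochberg adjusted p over all 9352 tested genes is below 0.05.

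Promoters of 4 genes are shown because these genes stand at the ends of the range described below: Ndufa4 and Uqcr11 had the lowest differences in complexes I and III, Cox6a1 was the most abundant gene in both groups, and Atp5b had the highest difference among complex V subunits. The sequences come from RefSeq (GRCm38.p6) and run from base -180 to base -31 before the annotated start, outside the transcript. Capitals mark matches, on either strand, to the NRF-1 motif GCGCANGCG, the ETS motif CCGGAAGT bound by GABP, and the CCAAT box. NRF-1 and GABP are transcription factors known for driving respiratory genes.
Ndufa4 (chr6:11907481-11907630, minus strand): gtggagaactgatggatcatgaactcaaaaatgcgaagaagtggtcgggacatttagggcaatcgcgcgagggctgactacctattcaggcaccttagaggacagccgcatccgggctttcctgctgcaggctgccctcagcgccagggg
Uqcr11 (chr10:80406852-80407001, minus strand): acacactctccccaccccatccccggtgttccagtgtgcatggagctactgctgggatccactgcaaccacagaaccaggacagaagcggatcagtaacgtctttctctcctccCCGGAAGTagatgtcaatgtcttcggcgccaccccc
Cox6a1 (chr5:115348989-115349138, minus strand): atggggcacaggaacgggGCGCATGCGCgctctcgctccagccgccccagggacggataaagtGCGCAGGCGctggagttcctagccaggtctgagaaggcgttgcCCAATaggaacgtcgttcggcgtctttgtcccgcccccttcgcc
Atp5b (chr10:128083127-128083276, plus strand): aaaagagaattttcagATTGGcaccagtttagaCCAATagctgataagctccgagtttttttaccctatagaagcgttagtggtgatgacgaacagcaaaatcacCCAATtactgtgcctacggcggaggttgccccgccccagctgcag

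In the stretches shown, Ndufa4 held none of these letters, Uqcr11 held the ETS motif at -66, Cox6a1 held the NRF-1 motif at -162, at -161 on the other strand and at -117 and a CCAAT box at -74, and Atp5b held CCAAT boxes at -164, -147 and -75. Over the whole RefSeq windows, 250 bases before to 50 after a start, the NRF-1 motif was present in 21 of 71 windows of 66 of the 85 genes (29.6%), against 14.5% of the windows of tested genes and 6.25% of all 32851 windows. The genes with it included Atp5g2, Atp5g3, Sdha, Sdhd, Uqcr11, Uqcrc1 and 8 complex I genes. The YY1 motif AANATGGC, that of another factor known at respiratory genes, was in 16 windows (22.5%, against 9.16% of tested and 6.05% of all windows), 12 of its genes being in complex I. The ETS motif was in 5 windows (7.04%, against 9.14% and 3.89%). The SP1 motif GGGCGG was in 38.0%, against 62.7% and 35.7%, the CCAAT box in 42.3%, against 38.4% and 37.4%, and TATAAA in 11.3%, against 7.39% and 13.6%. The ETS, NRF-1, YY1 and SP1 motifs can overlap GC-rich stretches and one another, and a match is letters in a window, not a bound site.

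None of the 79 genes was called, in either direction, where 2.34% of all tested genes were (219 of 9352, with 154 higher in macrophages and 65 lower). At an unadjusted limma p below 0.05, 4 of the 79 were lower in macrophages (5.06%, against 3.42% of all tested genes) and 0 were higher (against 11.6%). The 4 were Ndufa4, Ndufa1, Ndufa3 and Uqcr11. In none of the 79 did the values of the macrophage libraries lie wholly below those of the microglial libraries (against 1.95% of all tested genes) or wholly above them (against 5.69%).

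The differences nevertheless lay mostly below 0. Of the 79, 58 had a lower mean on the log2 scale in macrophages (73.4%, against 32.9% of all tested genes) and their median difference was -0.42, against 0.37 for all tested genes. Without the 3 genes that are not subunits, the median over 76 genes was -0.44. The lowest single difference was -1.42, for Ndufa4. These genes share their libraries and are not replicates, so the counts describe the list and are no test of it. The median lay below that of all tested genes in each of the 23 alternative analyses, which reuse the same 8 libraries. It ranged from -0.79 without macrophage 6, beside 0.19 for all tested genes, to -0.15 without microglia 2 and 3, beside 0.17. Scaling moved the median of all tested genes itself, from 0.37 as deposited to 0.48 with equal sums, 0.28 with the upper quartile, 0.16 with the median of ratios and -0.03 with quantile normalization, where the 79 genes had medians of -0.30, -0.53, -0.66 and -0.31 in the same order.

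**Figure D1:**
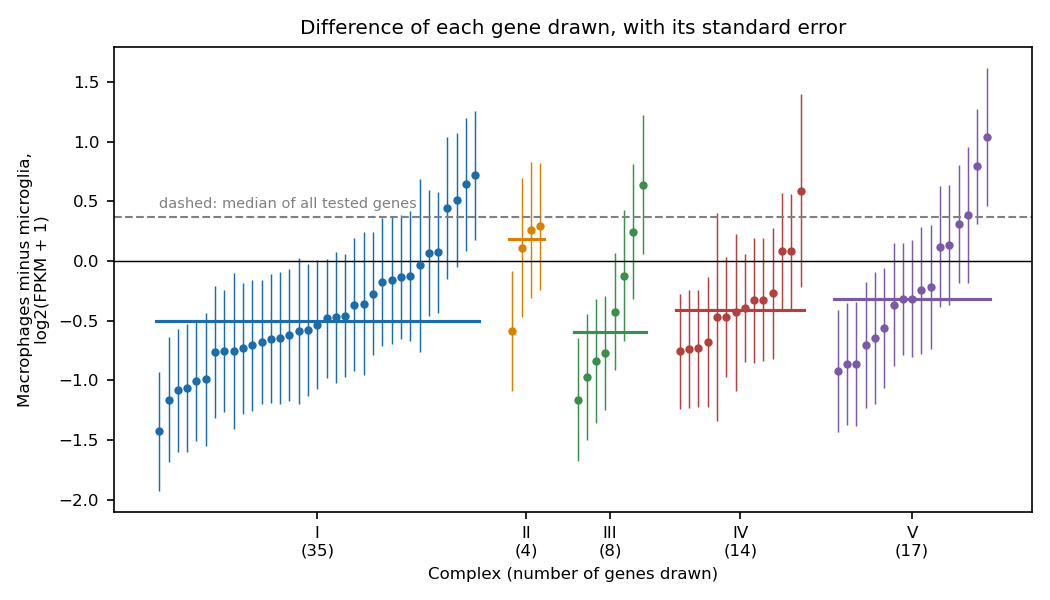
Each point is 1 of 78 tested genes and each vertical line its limma standard error, as the macrophage less the microglial mean of log2(FPKM + 1), ordered within each complex; horizontal bars are the medians over all tested genes of each complex. The medians of complexes I (-0.51), III (-0.60), IV (-0.41) and V (-0.31) lie below 0 and that of complex II (0.19) above it, and all are below the dashed median of all tested genes (0.37).

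In complex I, 29 of 36 tested genes had a difference below 0 and 7 above it, with a median of -0.51. Accessory subunits, which surround the catalytic core, had a median of -0.58, with 24 of 28 below 0. The 7 tested subunits of the catalytic core, which carry the flavin and the iron-sulphur clusters, had a median of -0.04, with 4 below and 3 above 0. The difference between accessory and core subunits was not tested. Here and in complexes III and V, the parts compared also differ in transcript length, as given below.

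Ndufa4 (mm9 chr6:11850373-11857446) bears a complex I name but was later assigned to complex IV, as an accessory subunit. It had 81.3, 194, 49.3 and 68.5 FPKM in macrophages 5 to 8, against 168, 297, 295 and 195 FPKM in microglia 1 to 4. The groups overlapped by 1 library each, since macrophage 6 lay above microglia 1. Its mean was 98.3 ± 65.2 FPKM in macrophages and 239 ± 67.1 FPKM in microglia (SD, n = 4 each), a log2 difference of -1.42 ± 0.50 (SE) with an adjusted limma p of 0.161. The exact two-sided permutation p for the 8 libraries was 0.0571, where 0.0286 is the smallest that 4 against 4 allows. Ndufa4 was called in 7 of the 23 alternatives, with adjusted p between 0.00943 (upper quartile scaling) and 0.0341 (centring within transcript length), and 0.0212 without macrophage 6, and not in the other 16, among them the fit with Y-linked expression as a covariate (log2 difference -1.49, adjusted limma p 0.9999) and the fit without microglia 2 and 3 (-1.07, 0.688). In those 7, the share of all tested genes called was 3.58% (equal sum), 2.93% (upper quartile), 2.66% (median of ratios), 3.42% (quantile normalization), 11.5% (array weights), 1.68% (without macrophage 6) and 2.9% (length centring).

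Ndufa4 has a paralogue, AA467197, listed by RefSeq also as Nmes1, known to replace Ndufa4 in complex IV of inflammatory macrophages. It is outside the naming rule and was chosen after its own values were seen. Its p-values therefore come from the values by which it was chosen. AA467197 had 18.6, 57.1, 17.9 and 27.0 FPKM in macrophages 5 to 8, against 2.47, 11.02, 3.06 and 0 FPKM in microglia 1 to 4. Every macrophage library was above every microglial library, as in 5.69% of all tested genes. AA467197 was listed at 0 in microglia 4. It rose by 2.95 ± 0.73 on the log2 scale (SE, adjusted limma p 0.0266). It was called in 14 of the 23 alternatives, with adjusted p between 3.38e-05 and 0.299 over all of them, and was lost, among others, with Y-linked expression as a covariate (0.126) and without each of microglia 1 (0.0591), microglia 4 (0.0824), macrophage 5 (0.0581), macrophage 6 (0.125) and macrophage 8 (0.0985).

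Within a library, the share of AA467197 in the summed FPKM of both genes does not depend on how the library was scaled. It was 18.6%, 22.7%, 26.7% and 28.3% in macrophages 5 to 8 and 1.45%, 3.58%, 1.03% and 0% in microglia 1 to 4. Ndufa4 thus held the larger part of the sum in every library of both groups. The third gene of the family, Ndufa4l2, which is known from hypoxia, was at most 0.126% of the Ndufa4 and Ndufa4l2 sum in any macrophage library and 0.091% in any microglial library.

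**Figure D2:**
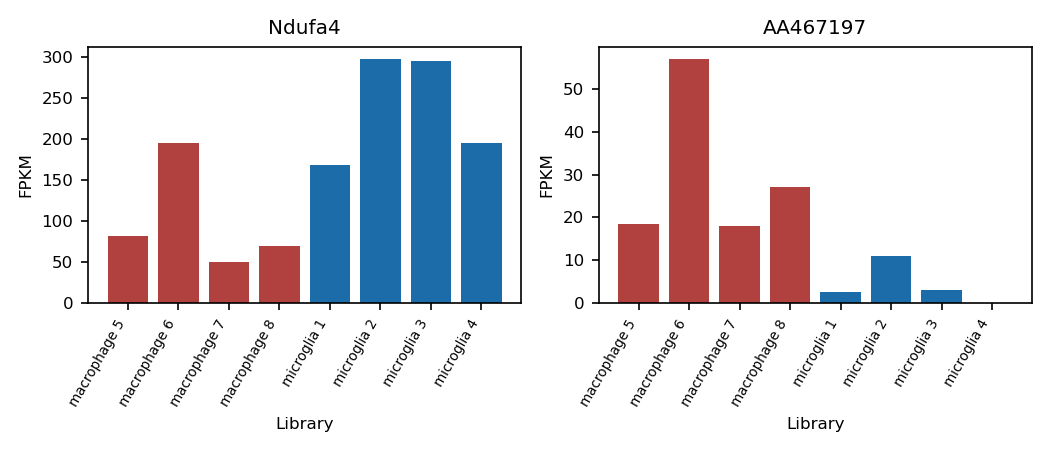
Bars are FPKM of Ndufa4 (left) and of its paralogue AA467197 (right) in each library, macrophages 5 to 8 in red and microglia 1 to 4 in blue. Ndufa4 reaches 194 FPKM in macrophage 6, above the 168 FPKM of microglia 1, while all 4 macrophage libraries of AA467197 lie above the 11.02 FPKM of microglia 2, the highest microglial library.

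Among the other accessory subunits of complex I, Ndufa3 had 186, 441, 91.8 and 115 FPKM in macrophages 5 to 8, against 238, 451, 592 and 279 FPKM in microglia 1 to 4. Macrophage 6 lay inside the microglial values and the other 3 macrophage libraries below them, with a log2 difference of -1.08 ± 0.52 (SE) and an adjusted limma p of 0.326. Ndufa1, an X-linked subunit needed to assemble the complex and named after its values were seen, had 101, 297, 117 and 72.0 FPKM in macrophages and 219, 308, 590.0 and 162 FPKM in microglia, a log2 difference of -1.16 ± 0.52 (adjusted limma p 0.3). Ndufb8, the most abundant complex I gene together with Ndufa3, averaged 266 ± 235 FPKM in macrophages and 381 ± 272 FPKM in microglia (SD, n = 4 each). Its highest library in each group, macrophage 6 and microglia 2, stood at 616 and 781 FPKM.

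Among the core subunits, Ndufv1, which binds NADH and was named after its values were seen, averaged 39.2 ± 14.3 FPKM in macrophages and 23.6 ± 8.08 FPKM in microglia (SD, n = 4 each), a log2 difference of 0.72 (adjusted limma p 0.568).

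Complex II, or succinate dehydrogenase, is the only complex encoded wholly in the nucleus. Its 4 genes did not share a direction, with Sdhb below 0 and the other 3 above it. The flavoprotein Sdha averaged 52.1 ± 23.0 FPKM in macrophages and 47.6 ± 28.7 FPKM in microglia, with a log2 difference of 0.26 (adjusted limma p 0.873). The iron-sulphur subunit Sdhb had 130.1, 238, 101 and 63.6 FPKM in macrophages 5 to 8, against 174, 321, 142 and 129 FPKM in microglia 1 to 4, a log2 difference of -0.59 (adjusted limma p 0.624). The membrane anchors were Sdhc, at 19.7 FPKM in macrophages and 19.2 FPKM in microglia, and Sdhd, at 94.0 FPKM in macrophages and 63.9 FPKM in microglia. Scaled by the median of ratios, Sdha stood at -0.00 and Sdhc at -0.14. The value of Sdhd in macrophage 6, 201 FPKM, was above 42.3 to 84.8 FPKM in the other macrophage libraries.

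In complex III, all 5 accessory subunits had a difference below 0, with a median of -0.84, and the 2 core proteins, Uqcrc1 and Uqcrc2, above it, with a median of 0.44. The remaining gene, Uqcrfs1, the Rieske iron-sulphur protein of the catalytic core, stood at -0.12. Uqcr11 (mm9 chr10:79865742-79869566) had 180.4, 401, 146 and 94.9 FPKM in macrophages 5 to 8, against 258, 586, 681 and 248 FPKM in microglia 1 to 4. The groups overlapped through macrophage 6, and the log2 difference was -1.16 ± 0.51 (SE, adjusted limma p 0.291). Uqcrq, a small subunit near the quinone site, averaged 223 ± 163 FPKM in macrophages and 364 ± 169.7 FPKM in microglia (SD, n = 4 each). The core protein Uqcrc2 had 38.8, 75.0, 17.4 and 31.7 FPKM in macrophages 5 to 8, against 30.1, 10.1, 31.9 and 26.3 FPKM in microglia 1 to 4. Microglia 2 was the lowest library of all, and the log2 difference was 0.64 (adjusted limma p 0.654).

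In complex IV, cytochrome c oxidase, 11 of 14 tested genes had a difference below 0, with a median of -0.41. Cox6a1 (mm9 chr5:115795663-115798964) had the highest mean of all 85 genes in both groups, 424, 980.1, 294 and 251 FPKM in macrophages 5 to 8 and 572, 1184, 699.8 and 531 FPKM in microglia 1 to 4. The log2 difference was -0.76 ± 0.48 (SE, adjusted limma p 0.479). Cox4i1, a regulatory subunit, followed it at 452 ± 228 FPKM in macrophages and 556 ± 125 FPKM in microglia. Cox7a2l, known for joining complexes III and IV in supercomplexes, averaged 104 FPKM in macrophages and 94.2 FPKM in microglia, a log2 difference of 0.08 that was -0.02 with upper quartile scaling and -0.18 with the median of ratios.

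Several complex IV subunits have a second gene that heart, muscle, lung or testis use. In every library the common gene of each pair held the larger part of the sum. Cox4i2, known from lung and hypoxia, reached 0.139% of the sum with Cox4i1 in macrophages and 0.0494% in microglia. Cox6a2, known from heart and muscle, held 0.441% to 2.01% of the sum with Cox6a1 in macrophages and 0% to 3.66% in microglia. The locus of Cox6a2 overlaps Itgad, so its FPKM may hold reads of that gene. The testis isoform Cox6b2 reached 2.57% in macrophage 5 and 0.0321% in microglia 3, and Cox8b reached 0.216% in macrophage 5 and was listed at 0 in all other libraries. Cox7a1, another heart and muscle isoform, had the largest shares, 8.42%, 12%, 0% and 4.18% in macrophages 5 to 8 and 7.33%, 0%, 0% and 11.2% in microglia 1 to 4. Of the testis isoforms Cox7b2 and Cox8c, Cox7b2 was above 1 FPKM in macrophages 7 and 8 and at most 0.142 FPKM in microglia, and Cox8c reached 8.25 FPKM in macrophage 7 and 13.8 FPKM in microglia 3.

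In complex V, 11 of 17 tested genes had a difference below 0, with a median of -0.31. In the F1 head and stalk, which makes ATP, 4 of 5 genes had a difference above 0 (median 0.13), and in the peripheral stalk and membrane part 6 of 7 had one below 0 (median -0.71). Atp5b (mm9 chr10:127520363-127527444), the catalytic beta subunit, had 245, 395, 118 and 156 FPKM in macrophages 5 to 8, against 134, 93.0, 134 and 117 FPKM in microglia 1 to 4. Macrophage 7 lay inside the microglial values, and the log2 difference was 0.79 ± 0.48 (SE, adjusted limma p 0.452). Atp5e, the epsilon subunit, averaged 229.9 ± 145 FPKM in macrophages and 311 ± 119 FPKM in microglia, and Atp5j2, a small membrane subunit, 129.8 ± 69.4 FPKM in macrophages and 244 ± 129 FPKM in microglia.

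The proton-turned ring of complex V is built from 1 protein, encoded by Atp5g1, Atp5g2 and Atp5g3. On average Atp5g2 held the largest part of their sum, 47.0% ± 8.24 in macrophages and 44.3% ± 7.23 in microglia, followed by Atp5g3 at 29.8% ± 7.76 in macrophages and 35.3% ± 9.25 in microglia and Atp5g1 at 23.2% ± 5.81 in macrophages and 20.4% ± 5.21 in microglia (n = 4 each, SD). In macrophage 6 and in microglia 2 it was Atp5g3, with 38.9% against 36.1% for Atp5g2 in macrophage 6 and 46.8% against 34.3% in microglia 2. For each of the 3 the means of the groups lay closer than 1 SD. Atp5g3 stood at 301 FPKM in macrophage 6 and between 80.1 and 87.5 FPKM in the other macrophage libraries.

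**Figure D3:**
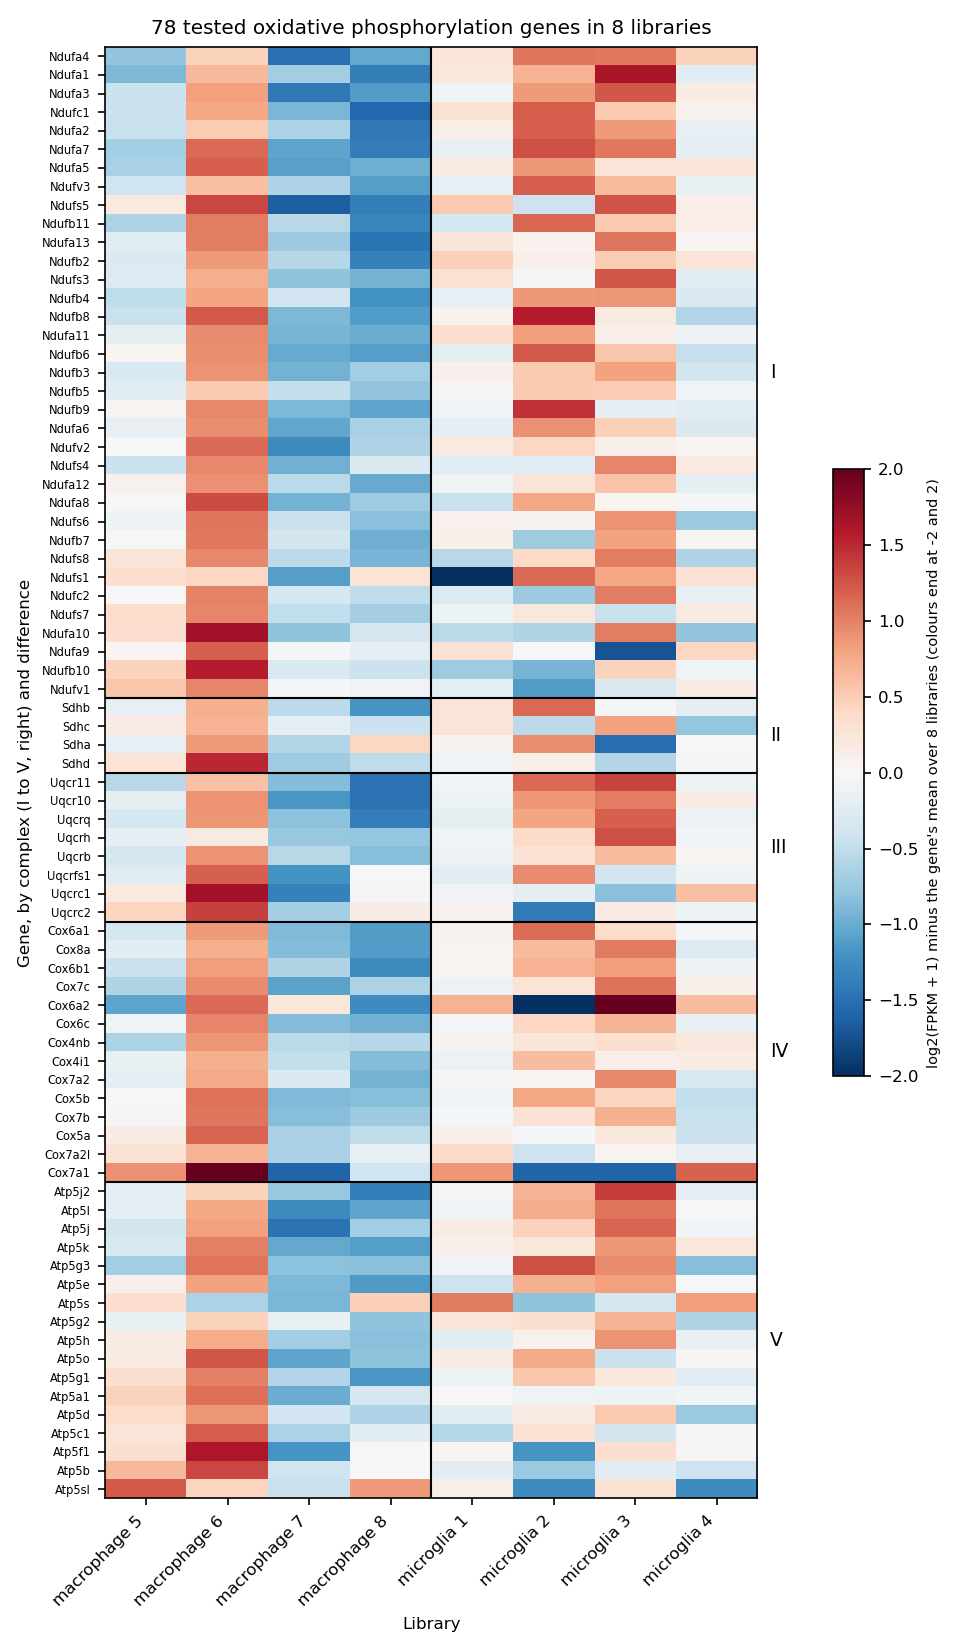
Rows are 78 tested genes grouped by complex, columns the libraries with macrophages left of microglia, and colour the log2(FPKM + 1) value minus the gene's mean over the 8 libraries. Macrophage 6 is high over most genes and macrophages 7 and 8 are low, while microglia 2 and 3 are higher than microglia 1 and 4 in many.

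On the log2 scale, the median SD among libraries over the 79 genes was 0.87 in macrophages and 0.57 in microglia, and the median absolute difference between the group means was 0.53. Over all tested genes the SD was 0.74 in macrophages and 0.90 in microglia and the difference 0.61. The summed FPKM of the 85 genes was 8011, 16724, 5193 and 4776 in macrophages 5 to 8, against 8686, 14210, 14387 and 8239 in microglia 1 to 4. As a share of all FPKM this was 2.66%, 3.27%, 2.51% and 1.97% in macrophages (2.60% ± 0.532) and 2.90%, 4.08%, 3.66% and 2.78% in microglia (3.36% ± 0.618, SD, n = 4 each). Macrophage 6 held the highest value of 39 of the 79 genes (49.4%, beside 43.0% of all tested genes), macrophage 7 the lowest of 25 (31.6%, beside 18.6%) and macrophage 8 the lowest of 38 (48.1%, beside 6.21%).

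**Figure D4:**
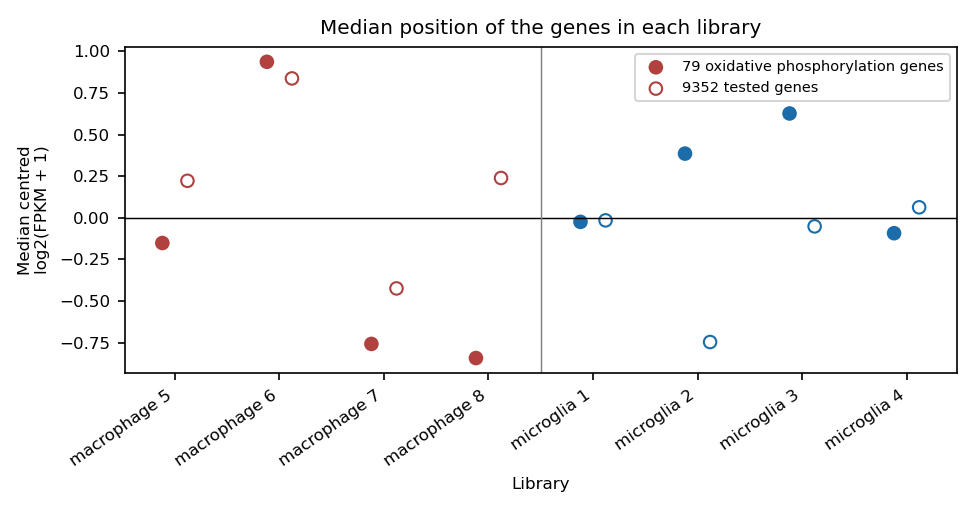
Points are the median, over genes, of log2(FPKM + 1) minus each gene's mean over the 8 libraries, filled for the 79 oxidative phosphorylation genes and open for all 9352 tested genes, with macrophages red and microglia blue. In macrophage 6 both lie high (0.94 and 0.84), in macrophage 8 the oxidative phosphorylation genes lie at -0.84 and all genes at 0.24, and in microglia 2 they lie at 0.39 and all genes at -0.75.

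Complex I made up 31.9% to 35.2% of it in macrophages and 34.4% to 37.5% in microglia, complex III 12.2% to 13.1% in macrophages and 12.7% to 16.4% in microglia, and complex IV 24.3% to 26.5% in macrophages and 22.6% to 26.2% in microglia. Complex V made up 23.7% to 27.6% in macrophages and 20.05% to 23.3% in microglia, the one complex whose shares did not overlap between the groups; this was seen among 5 complexes and was not tested. Complex II made up 3.29% to 3.86% in macrophages and 1.64% to 3.55% in microglia, lowest in microglia 3.

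Libraries also differed in scale and in markers of other cells. All FPKM summed to 207077 to 512049 in macrophages and 295881 to 392753 in microglia, and microglia 2 had the fewest genes at 1 FPKM or more, 5992. Summed FPKM of 4 microglial markers was 432 to 1430 in macrophages and 1533 to 1884 in microglia, with Sall1 listed at 0 in 3 macrophage libraries, and of the monocyte markers Ccr2 and Ly6c2 31.2 to 548 in macrophages and 0.20 to 1.76 in microglia. Of 15 photoreceptor genes, whose cells are rich in mitochondria, the sum was 9.38 to 72.3 FPKM in macrophages and 32.0 to 306 in microglia, with 2 to 9 of them at 1 FPKM or more in macrophages and 6 to 15 in microglia. By library it was 32.0, 170, 306 and 138 FPKM in microglia 1 to 4, beside oxidative phosphorylation sums of 8686, 14210, 14387 and 8239 FPKM. In macrophages 5 to 8 it was 9.38, 72.3, 67.4 and 15.9 FPKM, beside 8011, 16724, 5193 and 4776 FPKM. Of 7 Müller glia genes the sum was 9.80 to 49.6 in macrophages and 59.1 to 134 in microglia. At 1 FPKM or more were 2 to 5 of them in macrophages and 2 to 4 in microglia. Of 5 erythroid genes the sum was 0.69 to 23.7 in macrophages and 0.68 to 2437 in microglia. At that level were 0 to 2 of them in macrophages and 0 to 5 in microglia. Of 6 neutrophil genes the sum was 40.6 to 174 in macrophages and 0 to 1.14 in microglia. At that level were 2 of them in each macrophage library and 0 to 1 in microglia. The macrophage markers shared by both cell types summed to 720.3 to 2248 in macrophages and 1666 to 2242 in microglia. Platelet genes summed to 16.4 to 78.8 in macrophages and 0.088 to 18.0 in microglia. Lymphoid genes summed to 4.25 to 14.7 in macrophages and 0.035 to 36.2 in microglia. Endothelial genes, with Cldn5 listed at 0 in all libraries, summed to 0.74 to 9.48 in macrophages and 0.52 to 3.14 in microglia. At 1 FPKM or more were 1 to 2 of 5 platelet genes in macrophages and 0 to 3 in microglia. For 6 lymphoid genes this was 1 in each macrophage library and 0 to 2 in microglia. For 5 endothelial genes it was 0 to 2 in either group. A sum carried by 1 or 2 genes does not establish that the cell type is present. Xist was 4.84 to 7.94 FPKM in macrophages and 4.78 in microglia 4, and at most 0.00078 in microglia 1 to 3, whose Y-linked genes summed to 11.7 to 25.8. Set against the macrophage libraries, microglia 4, the microglial library alike in this, lay within their range for 71 of the 79 genes, above it for 2 and below it for 6, against 6239 of 9352 tested genes within, 12.4% above and 20.9% below. That range is wide, since the centred medians of the 79 genes ran from -0.84 in macrophage 8 to 0.94 in macrophage 6. Microglia 1, without Xist, lay at -0.02 and microglia 4 at -0.09. The count therefore cannot show whether microglia 4 is more like macrophages than microglia 1 is. The part of these cells and of the sex-linked split in the differences was not tested. In such bulk samples, fewer cells of a type and less RNA per cell cannot be told apart.

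The 79 oxidative phosphorylation genes had a median transcript length of 690 bases, against 2097 for all tested genes. In complex I it was 646.5 bases for accessory and 1046 for catalytic core subunits. In complex III it was 474.5 for accessory subunits and 1596.75 for the core proteins. In complex V it was 560 for the peripheral stalk and membrane part and 1000 for the F1 head and stalk. For complex II it was 1214.5. The part of length in these contrasts between subunit roles was not tested. Across the 79 genes the difference was higher for longer transcripts (Spearman rho 0.58, description only; the genes share the same 8 libraries), and across 8989 tested genes with a length rho was 0.09. In the class up to 800 bases, 45 of these genes had a median of -0.58, with 41 below 0, against 0.00 for 917 tested genes of that length. Between 800 and 1500 bases the median was -0.12 for 22 genes, against 0.31. Above 1500 bases it was 0.19 for 12 genes, against 0.43, and that last class is small. The centred median of the 79 genes changed most between the first and last class in macrophage 8, from -1.01 to -0.14. Microglia 2 came next, from 0.64 to -0.16. Over all tested genes it changed most in microglia 2, from 0.11 to -0.92, and then in macrophage 8, from -0.34 to 0.37. The part of single libraries in the length trend was not tested. When every library was centred on all tested genes of like length, the 79 genes had a median of -0.50, against -0.08 for all tested genes, with 68 below 0. Whether the way libraries or FPKM treat short transcripts has a part in the differences was not tested beyond this.

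**Figure D5:**
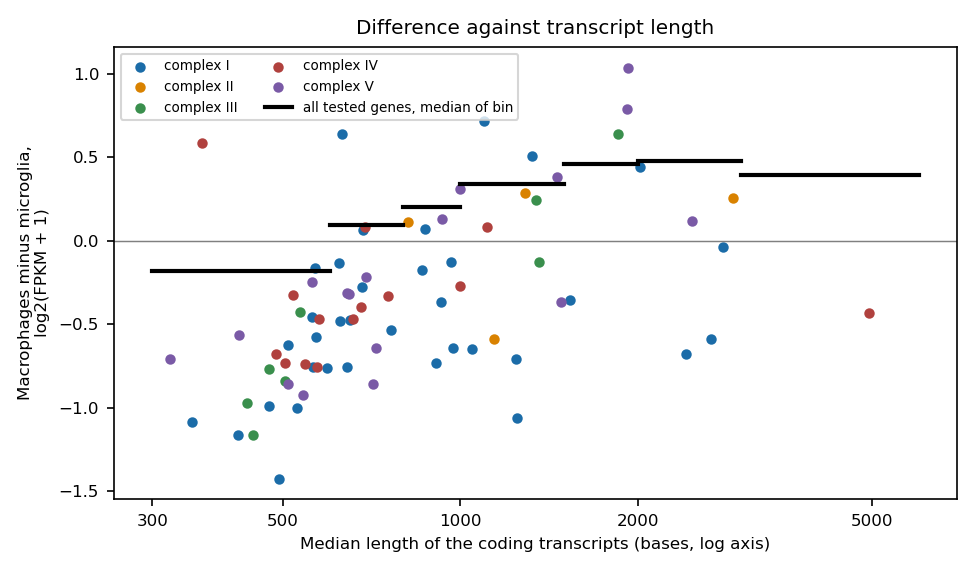
Each point is 1 of 78 tested genes, coloured by complex, with the median length of its coding transcripts on a log axis and its difference, macrophages minus microglia, in log2(FPKM + 1); black bars are the medians of all tested genes in bins of length. Genes up to 800 bases have a median of -0.58 and genes over 1500 bases one of 0.19.

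The rest of the mitochondrial machinery was described from lists of related genes, chosen with earlier results known. Their counts stand beside a share of 2.34% called and a median of 0.37 over all tested genes. Subunits and electron carriers outside the naming rule had 0 of 8 tested genes called and a median of -0.09, assembly factors 0 of 28 and 0.32, and mitochondrial ribosomal proteins 0 of 76 and 0.08. Biogenesis regulators had 0 of 14 called and a median of 0.66, exchange carriers and pores 0 of 7 and -0.05, pyruvate entry 0 of 10 and 0.30, and hypoxia regulators 0 of 6 and -0.03. For comparison, the medians were -0.18 over 80 cytosolic ribosomal protein genes and 0.09 over 37 proteasome genes, with 0 called in either.

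The tricarboxylic acid cycle, which feeds complexes I and II, had a median of 0.82 over 14 tested genes, beside 0.37 for all tested genes. Its centred medians were 0.70, 1.30, -0.31 and 0.25 in macrophages 5 to 8. In microglia 1 to 4 they were 0.12, -1.68, -0.79 and 0.09, with microglia 2 and 3 the lowest. Of the 14 genes, 1 was called, higher in macrophages, and 0 lower, beside 2.34% of all tested genes called. That gene was Idh2, the mitochondrial NADP-dependent isocitrate dehydrogenase. It had 62.1, 68.6, 14.2 and 38.7 FPKM in macrophages 5 to 8, against 10.3, 2.64, 1.06 and 11.9 FPKM in microglia 1 to 4. All macrophage libraries lay above all microglial libraries, as in 5.69% of all tested genes. Idh2 rose by 2.81 ± 0.69 on the log2 scale (SE, adjusted limma p 0.0266). It was called in 14 of the 23 alternatives, with adjusted p between 0.000375 and 0.9999 over all of them, and was lost with Y-linked expression as a covariate (0.9999), without microglia 2 and 3 (0.294) and without each of microglia 3 (0.0876), macrophage 5 (0.118), macrophage 6 (0.109) and macrophage 8 (0.0880), among others. Hif1a, the oxygen-regulated factor known to lower respiration, averaged 13.1 ± 9.04 FPKM in macrophages and 41.6 ± 16.7 FPKM in microglia (log2 difference -1.80, adjusted limma p 0.156). Brp44l (Mpc1), a carrier subunit that brings pyruvate into mitochondria, averaged 65.7 ± 45.7 FPKM in macrophages and 137 ± 47.4 FPKM in microglia (log2 difference -1.25, adjusted limma p 0.274). Atpif1, the inhibitor of complex V, averaged 156 FPKM in macrophages and 172 FPKM in microglia. Slc25a5, the carrier that exchanges ATP for ADP, averaged 564 FPKM in macrophages and 501 FPKM in microglia.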

How the data were processed

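Messenger RNA was measured in 8 mouse retinal libraries, 4 of infiltrating macrophages and 4 of microglia, grouped by the tissue subtype in the labels. The submitters' processing notes name mm9 with Cufflinks 2.1.1 and bcl2fastq 1.8.4, while the annotation and aligner used are not given in the sources here. The deposited FPKM values were made by the authors, per the file headers, with a status and locus per row. FPKM removes length and depth but not differences in composition. Read depth is unknown, so no counting interval is given, and the number of libraries limits the precision.

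Rows of 1 symbol were summed (23021 rows, 22558 symbols); 9 symbols with a failed status were left out, none of them an oxidative phosphorylation gene. Genes at 1 FPKM or more in 4 or more libraries were compared on the scale of log2(FPKM + 1) by limma 3.58.1 (R 4.3.3, trended, two-sided), with Benjamini-Hochberg adjustment over 9352 genes. The log2 scale with a pseudocount of 1 understates the change of low genes. The fit was tested on simulated data. Sums, shares, exact permutation tests and figures used Python 3.11.15, pandas 2.3.3, numpy 2.4.6, scipy 1.17.1 and matplotlib 3.10.9. Transcript length is the median over coding transcripts of GENCODE vM1 (NCBIM37), whose loci overlapped all 85 genes by coordinate; promoters came from RefSeq (GRCm38.p6).

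The set of genes, though matched by name alone, and the lists were chosen with earlier results of these data known. Named genes are every called gene; per complex the 2 most abundant and those with the largest rise and fall above a mean of 5 FPKM; the isoform and Sdh genes; and in each other list the called genes (at most 4), or else the most abundant one. A gene that the rule names is not reported here. Alternatives varied the pseudocount, filter, scaling, variance model, Y-linked covariate, libraries and transcript length.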

Additional observations from a re-analysis of the deposited data

Results flagged for a closer look

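In 5 of 78 groups of 4 libraries looked at for the named genes, 1 library lay far from the other 3; chance gives such a gap in about 1 of 20 groups. Atp5g3 stood at 301 FPKM in macrophage 6, against 80.1 to 87.5 FPKM in the other macrophage libraries. Cox8b stood at 0.484 FPKM in macrophage 5 and was listed at 0 in the other macrophage libraries. Microglia 2 was the library apart for 2 genes: Uqcrc2 at 10.1 FPKM, against 26.3 to 31.9 FPKM in the other microglial libraries, and Cox17, a copper chaperone for complex IV, at 32.0 FPKM, against 66.1 to 75.8 FPKM. Cox6b2 stood at 0.146 FPKM in microglia 3 and was listed at 0 in the other microglial libraries. Where the other libraries are at 0, any value above 0 is flagged, so the rate of 1 of 20 does not apply to Cox8b and Cox6b2.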

How the results depend on the processing

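No paired analysis was possible because the replicate numbers of the groups, 5 to 8 and 1 to 4, are not shared. Of 804 comparisons of 35 named genes with an alternative, 728 kept their direction and side of the threshold, 12 newly passed it, 18 no longer passed it and 46, in 14 genes, changed sign; the cause was not tested. Length centring was chosen after seeing the data. All tested genes called numbered 136 with a pseudocount of 0.1, 50 with no filter, 132 with at least 5 FPKM, 335 with equal sums, 1075 with array weights, 25 with the Y-linked covariate, and 119 to 258 without 1 library. Of the calls, 70.3% were higher in macrophages, against 60% with no filter, 59.9% with the upper quartile, 55.4% with the median of ratios, 53.4% with quantile normalization, 39.1% with length centring and 49.7% without macrophage 6. Oxidative phosphorylation genes called numbered 1 (Ndufa4) with equal sums, upper quartile, median of ratios, quantile normalization and length centring, 3 with array weights (Ndufa4 and Ndufa1 lower, Atp5sl higher), and 0 to 1 without 1 library. Their median ran from -0.79 (without macrophage 6) to -0.22 (without macrophage 8). On the log2 scale, the Y-linked covariate put Atp5g2 at 0.27, Atp5g3 at 0.020, Cox7a1 at -0.68, Cox7a2 at 0.029 and Sdha at -0.073. Array weights put Atp5g1 at 0.065, Atpif1 at 0.036 and Slc25a5 at 0.0028. Length centring put Cox7a2l at -0.23, Sdha at -0.33, Sdhc at -0.0065 and Sdhd at -0.025. Equal sums put Slc25a5 at 0.11, and a pseudocount of 0.1 put Cox6a2 at 0.075. The median of ratios put Cox7a2l at -0.18, Sdha at -0.0040 and Sdhc at -0.14. Quantile normalization put Cox7a1 at -0.066, Sdhc at -0.0041 and Slc25a5 at 0.31, and the upper quartile put Cox7a2l at -0.023. Without microglia 2 and 3, Atp5g1 stood at 0.054, Atp5g2 at 0.022, Atp5g3 at 0.14, Atpif1 at 0.18, Cox7a1 at -0.73, Cox7a2 at 0.015 and Cox7a2l at -0.069. Without 1 library at a time, Atp5g1 ran from -0.58 to 0.14, Atpif1 from -0.64 to 0.084, Cox17 from -0.72 to 0.15, Cox6a2 from -1.41 to 0.19, Cox7a1 from -0.069 to 1.22, Cox7a2l from -0.13 to 0.31, Gabpb1 from -0.80 to 0.42, Sdha from -0.21 to 0.61, Sdhc from -0.13 to 0.40, Sdhd from -0.17 to 0.57 and Slc25a5 from -0.46 to 0.28. Hif1a passed the threshold under the median of ratios (adjusted limma p 0.0391), array weights (0.0228) and length centring (0.0252), and Brp44l under the upper quartile (0.0362).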
